A study of Mus musculus with 4 samples.

Results

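The glucocorticoid receptor gene Nr3c1 and 6 genes of its hormone response, Hsd11b1, Fkbp5, Zbtb16, Tsc22d3, Sgk1 and Klf9, were followed on 4 mouse expression arrays of pooled liver RNA. These 7 genes, of 18193 with a probe set of their own, were found by gene symbol and are measured by 25 of 45037 probe sets. They were chosen by name with the signals of treated and control livers at both days already known. Those signals are therefore given as a description, without a test.

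Every mouse was Metff/ff:ERCre+/+, with floxed Met and a tamoxifen-dependent Cre recombinase. In the delta MET + EGFRi group, daily tamoxifen (100 μl of 10 mg/ml in corn oil, intraperitoneally, 5 days) was used to delete Met exon 16. After 4 days of rest these mice ate canertinib, a blocker of EGFR, in a diet aimed at 80 mg/kg/day. Littermate controls had corn oil alone and the same rest, with no tamoxifen and no canertinib, so that Met loss, tamoxifen, canertinib and any change in feeding cannot be told apart. Deletion was systemic. The labels state neither the age of the mice nor the number of livers pooled nor the hour of harvest. Each group has 1 array at day 7 and 1 at day 10, counted in treated mice from the start of canertinib, and nothing in the labels gives an animal-level replicate. A difference at 1 day thus compares 2 arrays of pooled RNA, and no spread between animals was measured.

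Glucocorticoids are adrenal steroids released under stress and before the active phase of the day. The receptor waits in the cytoplasm in a complex with HSP90 chaperones, enters the nucleus once hormone binds, and attaches to DNA elements made of paired half-sites. In liver it raises genes of glucose and amino acid metabolism, acts together with cytokines on acute phase genes, and induces its own brakes, among them Fkbp5.

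The median signal lay between 210.5 and 223.9, and the ratio of the 3' to the 5' Gapdh control probe set was 1.22 and 1.09 on the treated arrays and 0.977 and 1.14 on the control arrays. The same ratio for the pyruvate carboxylase control was 11.1 and 10.6 on the treated arrays and 4.21 and 8.78 on the control arrays, highest on the treated ones, and the part of RNA quality in the results was not tested. Between any 2 arrays, Pearson's r over probe sets on the log2 scale was 0.923 to 0.948. The hepatocyte genes Alb, Ttr and Apoa1 lay between 64805 and 82542 on every array. Of the 9 hepatocyte markers kept 0 passed limma's test, but in 4 both treated arrays were above both control arrays, against 20.3% of all 11993 kept genes. Those 4 were Hnf4a, Apob, Fga and Ahsg, 1.82-fold to 1.36-fold in that order. Met, the targeted gene, had signals of 2432.5 and 2828.7 in treated livers at days 7 and 10, against 975.5 and 1270.8 in control livers, a log2 difference of 1.24 ± 0.23 (limma's SE, n = 2 arrays per group; adjusted p = 0.103). Where its probes lie relative to exon 16 was not used here, so that the array does not check the deletion.

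The letters of the receptor's best known binding element were found in front of 1 of the 5 genes that could be searched. RefSeq promoter windows (GRCm38.p6, 250 bases before to 50 after a transcript start) matched 5 of the 7 genes, all but Nr3c1 and Zbtb16, with 12 windows. Both strands were searched for the half-site AGAACA and for the full palindrome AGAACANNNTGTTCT, which contains a half-site at each end. A half-site was found in 4 of the 12 windows, against 19.0% of all 32851 windows, and the full palindrome in 1, against 0.00913% of all windows (3 of 32851). All but 1 of those 4 windows belonged to Sgk1 and the other to Tsc22d3, the only members with several windows. Windows of the same gene are not independent, so that nothing is read from these shares. The 250 bases before the start are shown for the window with the palindrome and, for comparison, for the gene with the highest difference between the groups, with half-sites and the palindrome in capitals.

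Sgk1, chr10:21993640-21993889, plus strand: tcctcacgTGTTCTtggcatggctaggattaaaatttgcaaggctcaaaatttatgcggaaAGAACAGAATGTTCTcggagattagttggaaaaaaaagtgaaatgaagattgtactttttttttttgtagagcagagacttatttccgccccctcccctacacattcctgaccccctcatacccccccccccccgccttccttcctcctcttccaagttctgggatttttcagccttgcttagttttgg

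Fkbp5, chr17:28486150-28486399, minus strand: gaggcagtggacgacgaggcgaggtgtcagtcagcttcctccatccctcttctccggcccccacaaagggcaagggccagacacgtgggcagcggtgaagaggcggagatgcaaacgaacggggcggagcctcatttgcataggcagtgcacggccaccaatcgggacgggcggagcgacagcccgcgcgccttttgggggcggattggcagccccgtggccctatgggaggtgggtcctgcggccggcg

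The Sgk1 palindrome begins 189 bases before the start of 1 of 6 Sgk1 windows. The Fkbp5, Klf9 and Hsd11b1 windows hold no half-site, and 1 of the 3 Tsc22d3 windows holds 1. These matches describe letters in short windows only; elements farther away were not searched.

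The receptor gene was nearly level between the groups. Nr3c1 had signals of 1573.2 and 1468.5 in treated livers at days 7 and 10, against 1576.6 and 1742.9 in control livers, by its brightest probe set. The treated arrays were the lower ones, by a log2 difference of -0.003 at day 7 and -0.25 at day 10. A further bright probe set gave 1287.6 and 1274.1 in treated livers, against 1472.6 and 1559.0 in control livers, again with both treated arrays below both control arrays. Of the 6 probe sets of Nr3c1 none was 2-fold apart at either day, and their mean differences over both days ran from -0.33 to 0.03.

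Hsd11b1 (chromosome 1, 193221640 to 193264045 in GRCm38.p6) encodes the enzyme that regenerates active hormone from its inert 11-keto form inside the cell. Its single probe set gave signals of 15824 and 7138 in treated livers at days 7 and 10, against 22484 and 21309 in control livers. Both treated arrays lay below both control arrays, the day 10 array most. The gene was 1.42-fold lower at day 7 and 2.99-fold lower at day 10, the 201st lowest of 11993 genes at day 10. The means were 11481 ± 6142 in treated and 21896 ± 831 in control livers (SD, n = 2 arrays each), so that most of the spread came from the treated days.

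Fkbp5 (chromosome 17, 28398753 to 28486149) encodes a co-chaperone of HSP90 that lowers the receptor's affinity for hormone and is itself induced by it. Its signals were 7942.8 and 5025.3 in treated livers at days 7 and 10, against 788.2 and 1301.4 in control livers. Both treated arrays stood well above both control arrays. The difference was 10.1-fold at day 7 and 3.86-fold at day 10, and by the mean of both days Fkbp5 ranked 34th from the top of 11993 genes. Another probe set for the same gene gave 4054.7 and 1857.7 in treated livers, against 848.1 and 518.6 in control livers, or 4.78-fold and 3.58-fold. Between the control arrays these 2 probe sets differed in opposite directions, day 10 minus day 7, by log2 differences of 0.72 and -0.71. The remaining probe set lay between 2.6 and 4.7 on every array, under the floor of 64.8, and carries no information on direction.

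Zbtb16 (chromosome 9, 48651797 to 48836225) encodes PLZF, a zinc finger transcription factor known as a strongly hormone-induced gene in many tissues. Its brightest probe set gave 3007.6 and 2151.4 in treated livers at days 7 and 10, against 637.5 and 795.3 in control livers. The groups did not overlap, at 4.72-fold at day 7 and 2.71-fold at day 10, and the gene ranked 94th from the top by the mean of both days. A second probe set gave 773.3 and 434.4 in treated livers, against 119.8 and 213.8 in control livers. The remaining one gave 565.8 and 577.3 in treated livers, against 516.5 and 299.9 in control livers. In all 3 probe sets both treated arrays were above both control arrays, the remaining one by only 1.10-fold at day 7.

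The other induced genes differed less or not in 1 direction. Klf9, a Krüppel-like transcription factor, had signals of 9862.1 and 6546.0 in treated livers at days 7 and 10, against 5702.9 and 6032.2 in control livers. Both treated arrays were above both control arrays, the day 10 array by little, at 1.73-fold and 1.09-fold. Over its 7 probe sets the mean difference ran from -0.27 to 0.56 on the log2 scale, and the treated arrays lay above the control arrays in 4 of them.

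Tsc22d3 encodes GILZ, a leucine zipper protein that carries part of the hormone's anti-inflammatory action. Its brightest probe set gave 2884.2 and 1495.2 in treated livers at days 7 and 10, against 1358.2 and 2007.2 in control livers, so that the groups overlapped. The gene was 2.12-fold higher at day 7 and 1.34-fold lower at day 10. A second probe set had daily differences of the same signs but another order of arrays, with 955.5 and 530.9 in treated livers against 693.9 and 1083.9 in control livers. The remaining pair of probe sets stayed within a log2 difference of -0.33 to 0.27 at either day.

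Sgk1, a kinase that controls sodium transport and cell survival and the gene with the palindrome above, had signals of 875.0 and 746.0 in treated livers, against 743.4 and 1051.6 in control livers. The groups overlapped. It was 1.18-fold higher at day 7 and 1.41-fold lower at day 10, by its single probe set.

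**Figure D1:**
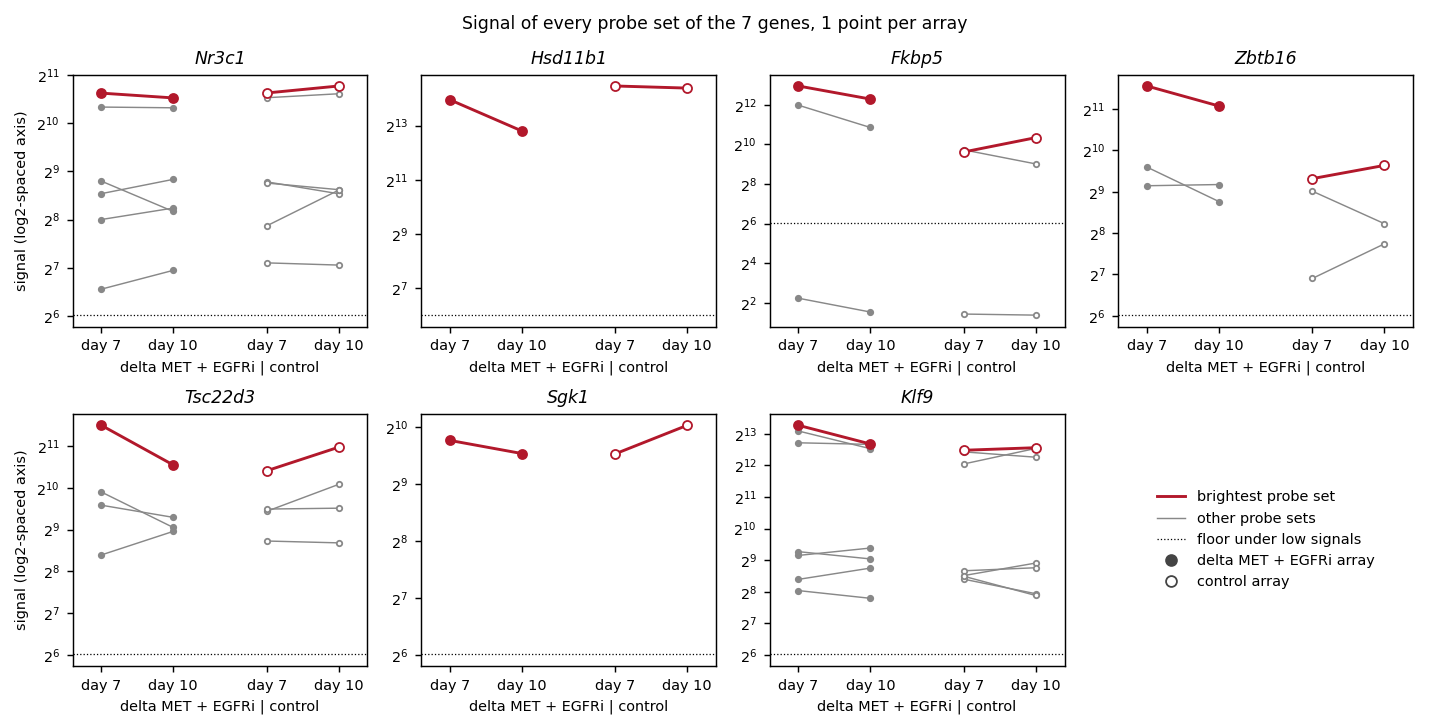
Signal of each of the 25 probe sets (log2-spaced vertical axis) on the delta MET + EGFRi arrays (filled points) and the control arrays (open points) at day 7 and day 10; lines join the 2 days of a group, the brightest probe set is red and the dotted line is the floor of 64.8. Fkbp5 and Zbtb16 stand higher on both treated arrays, Hsd11b1 is lowest on the day 10 treated array (7138 against 21309), and the Nr3c1 lines lie close together.

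Counted together, 2 of the 7 genes, Fkbp5 and Zbtb16, were at least 2-fold higher at both days and 0 were at least 2-fold lower at both days, while among all 11993 genes above the filter on dim genes 1.54% were 2-fold higher and 1.14% 2-fold lower at both days. At day 7, 3 of the 7 were at least 2-fold higher (background 4.6%) and 0 lower (background 5.16%). Those 3 were Fkbp5, Zbtb16 and Tsc22d3. At day 10, 2 were at least 2-fold higher (background 5.84%) and 1, Hsd11b1, lower (background 4.91%). In 3 of the 7 both treated arrays were above both control arrays and in 2 below, where 20.3% and 24.1% of all genes did so. The members were chosen with this contrast known, and nothing is read from these counts.

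**Figure D2:**
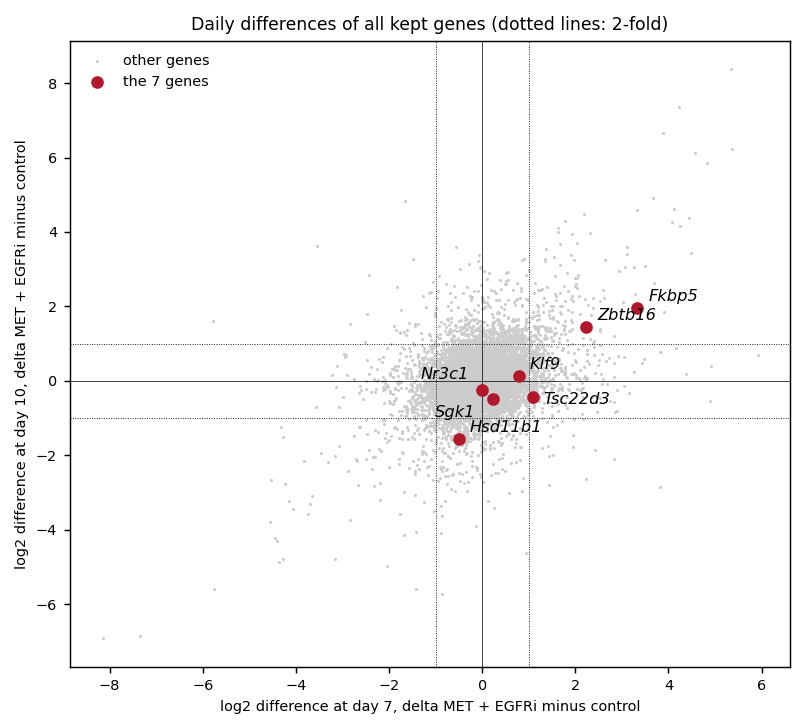
Log2 difference (delta MET + EGFRi minus control) at day 7 on the horizontal and at day 10 on the vertical axis, 1 grey point per gene of the 11993 kept and the 7 genes in red; dotted lines mark 2-fold. Fkbp5 (3.33 and 1.95) and Zbtb16 (2.24 and 1.44) lie in the upper right, Hsd11b1 (-0.51 and -1.58) in the lower left, and Tsc22d3 and Sgk1 have opposite signs at the 2 days.

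The order of the days was shared by most of the genes, read from the brightest probe set of each. On the treated arrays all 7 were lower at day 10 than at day 7, against 47.4% of all genes. On the control arrays 6 of the 7 were higher at day 10 than at day 7, Hsd11b1 being the exception, against 47.6% of all genes. Both held for 6 of the 7 and for 23.7% of all genes. Not every other probe set had this order. On the treated arrays, some other probe sets of Nr3c1, Zbtb16, Tsc22d3 and Klf9 were higher at day 10. On the control arrays, some other probe sets of these genes and of Fkbp5 were lower at day 10. These are single arrays, and the same arrays give the daily differences above, so that the order of the days is not a separate observation.

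Some circadian genes had the same order of arrays, as 23.7% of all genes did. Of the 12 clock genes kept these were Per1, Tef, Hlf and Nr1d2. Dbp and Per3 were lower at day 10 on the control arrays as well. Corticosterone and several of its target genes are known to cycle over the day. The clock genes were listed after the control values of Per1 were seen. Per1, which is both a clock gene and a direct target of the receptor, had signals of 1283.1 and 887.7 in treated livers at days 7 and 10, against 90.6 and 519.0 in control livers. The control arrays alone were 5.73-fold apart. Dbp, a clock output factor, gave 1172.5 and 194.1 in treated livers, against 332.4 and 324.6 in control livers, and its relative Tef 5900.4 and 1776.4, against 1664.1 and 2417.9. Both were higher on the treated array at day 7 and lower at day 10. So were Tsc22d3, Sgk1 and the clock genes Per3, Nr1d2 and Hlf. The other kept clock genes were not. Opposite signs at the 2 days, in either order, were found in 42.1% of all genes. Per1, Per2, Clock and Cry2 were higher at both days, Per2 by a log2 difference of only 0.01 at day 10. For Arntl, Nr1d1 and Nfil3 the signs were reversed. Arntl, a core clock activator, had the opposite order in treated livers, with 508.2 and 1488.5 against 904.2 and 1166.9 in control livers. Of 12 clock genes kept, 2 differed at least 2-fold between the control arrays, against 5.14% of all genes. They were Per1, whose control values were seen before the list was made, and Cry2. Cry2 went the other way, with 295.6 and 72.9 in control livers at days 7 and 10. Nothing is read from this count. The part of clock phase in the values of Tsc22d3, Klf9, Per1 and the day 7 peak of Fkbp5 was not tested.

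**Figure D3:**
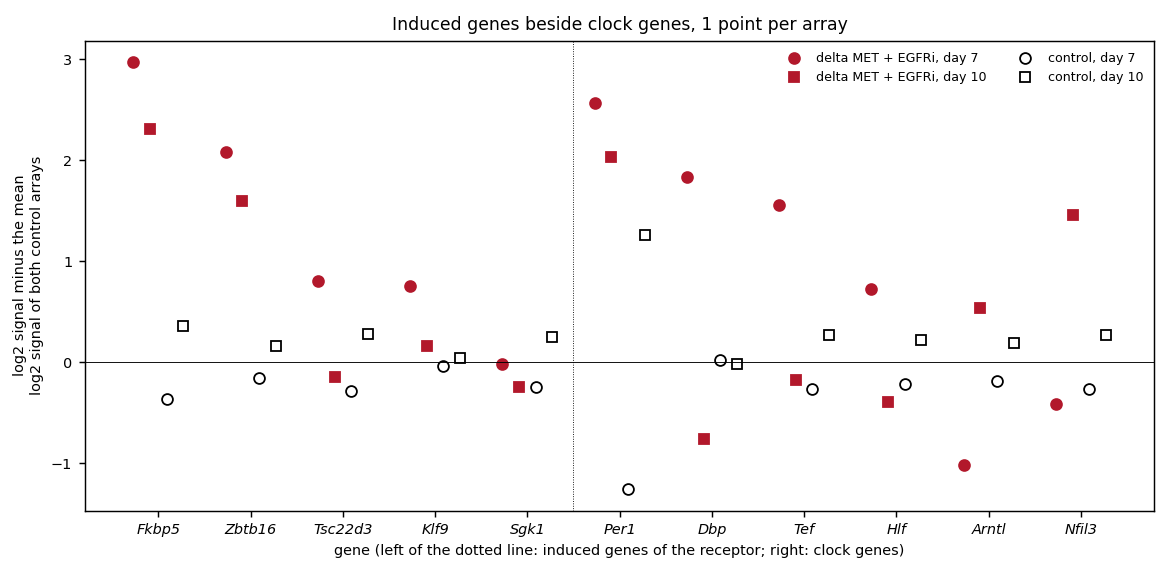
Log2 signal of each array relative to the mean of both control arrays, for 5 induced genes of the receptor (left of the dotted line) and 6 clock genes picked after their values were seen (right); filled red marks are delta MET + EGFRi arrays, open marks control arrays, circles day 7 and squares day 10. Fkbp5 and Zbtb16 are high on both treated arrays, whereas Dbp, Tef and Hlf are high on the day 7 treated array and below the control mean on the day 10 treated array.

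Further genes that glucocorticoids induce were mixed. The groups were compared over all 11993 genes with limma, whose Benjamini-Hochberg adjusted p under 0.05 called 0.375% of genes higher and 0.283% lower. Without the filter on dim genes limma called 0 genes, with 1918 at an unadjusted p under 0.05, so that no call below holds there. Of 15 other broadly induced genes kept, 1 rose and 0 fell. The one was Cebpd, a transcription factor of the acute phase, with 1691.7 and 1430.5 in treated livers at days 7 and 10, against 332.7 and 416.7 in control livers (4.18-fold, adjusted p = 0.0226). That call was lost with day as a block (adjusted p = 0.0675), with no intensity trend (0.059), with probe sets averaged (0.237) and on leaving out the day 7 or day 10 control array (0.144 and 0.141). Ddit4, an inhibitor of the growth kinase mTOR, gave 1563.9 and 675.3 in treated livers against 220.8 and 290.8 in control livers without passing (adjusted p = 0.142). Cdkn1a, a cell cycle inhibitor, gave 659.7 and 1435.4 against 350.4 and 513.5 (adjusted p = 0.33). Bcl6, a transcriptional repressor, went the other way, with 117.0 and 280.5 in treated livers against 278.5 and 1249.5 in control livers (adjusted p = 0.444), and its groups overlapped. The median log2 difference at days 7 and 10 was 0.58 and 0.35 for this list, and -0.06 and 0.01 for all genes. In 8 of the 15 both treated arrays were above both control arrays and in 2 below, where 20.3% and 24.1% of all genes did so.

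Among 8 kept liver enzymes and secreted proteins that respond to the hormone, 1 rose and 0 fell. Igfbp1, a binding protein of insulin-like growth factors that insulin represses, had 26098 and 24283 in treated livers at days 7 and 10, against 2705.7 and 2905.7 in control livers (8.98-fold, adjusted p = 0.00228). Without either control array its adjusted p was 0.0643 and 0.0692. Got1, an aminotransferase, and Ppargc1a, a coactivator of gluconeogenesis, were higher at both days without passing (log2 differences of 1.39 and 0.44, and of 0.83 and 0.37). G6pc, the last enzyme of glucose production, gave 6472.5 and 4932.6 in treated livers against 9745.0 and 17304 in control livers (adjusted p = 0.231). Median log2 differences of the list were 0.91 (day 7) and 0.16 (day 10). In 5 of the 8 both treated arrays were above both control arrays and in 1 below, where 20.3% and 24.1% of all genes did so.

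Genes on which the hormone is known to act together with cytokines had the most calls of these lists. Of 12 kept, 9 rose and 0 fell. Among those 9, Il1r1 had control signals of 133.8 and 117.8, under the filter on dim genes (204). It was thus tested only because its treated arrays were high. In all 12 both treated arrays were above both control arrays, against 20.3% of all genes. Their median log2 differences were 3.98 (day 7) and 4.55 (day 10). The earlier results on these same arrays had shown acute phase genes and metallothioneins to be high, so that the count is no independent evidence. The metal-binding protein genes Mt1 and Mt2 were 56.0-fold and 40.7-fold higher (adjusted p = 0.000928 and 0.00128), and the secreted proteins Lcn2 and Orm2 116-fold and 55.5-fold (adjusted p = 0.0132 and 0.0231). Lcn2 gave 30636 and 66002 in treated livers at days 7 and 10, against 755.1 and 199.0 in control livers, and Orm2 12193 and 28120, against 649.5 and 171.3. For both genes the treated array of day 10 was the higher one, while for Fkbp5 and Zbtb16 it was the lower one. The call of Orm2 was lost with day blocked (adjusted p = 0.0617), without the intensity trend (0.0644) or without the day 10 control array (0.0897), and those of Mt1 and Orm2 with the mean of probe sets (0.0508 and 0.0545).

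Inflammatory genes that the receptor is known to repress were mixed. Of 12 listed 7 were kept, of which 1 rose and 0 fell. In 4 of the 7 both treated arrays were above both control arrays and in 1 below, against 20.3% and 24.1% of all genes. Their median log2 differences were 0.74 (day 7) and 0.60 (day 10). Over both days the median was 0.58, but 1.27 with probe sets averaged, 0.30 with the floor at percentile 40 and 0.34 without the day 7 treated array. The adhesion molecule Icam1 gave 1145.3 and 992.2 in treated livers, against 335.7 and 357.6 in control livers (3.08-fold, adjusted p = 0.0421). Its call was lost with day as a block (adjusted p = 0.118), with no trend (0.0797), with probe sets averaged (0.0545) and on leaving out the day 7 or day 10 control array (0.226 and 0.244). The chemokine Cxcl1 gave 6584.7 and 14289 in treated livers, against 2057.0 and 1638.9 in control livers, and missed the threshold (5.28-fold, adjusted p = 0.064). The adhesion molecule Vcam1 gave 1144.6 and 975.4 against 464.8 and 644.0 (adjusted p = 0.226). The chemokine Ccl2 gave 189.3 and 165.0 in treated livers, against 473.9 and 265.4 in control livers (adjusted p = 0.422).

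**Figure D4:**
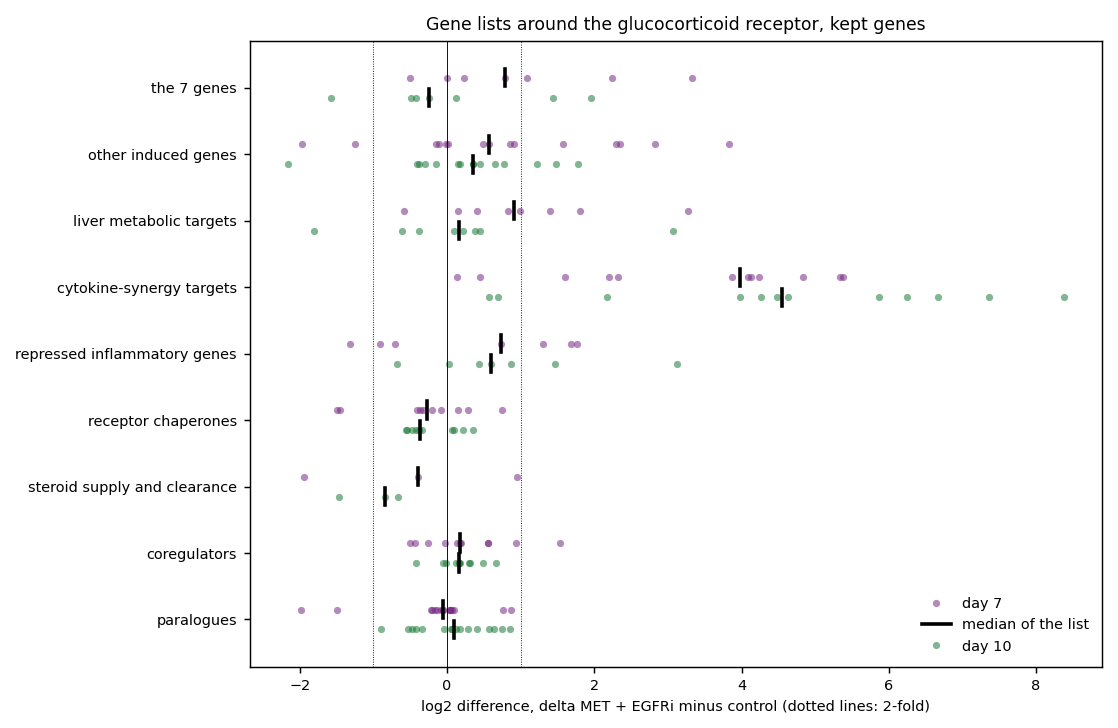
Log2 difference (delta MET + EGFRi minus control) of each kept gene at day 7 (purple) and day 10 (green) in the 7 genes and 8 lists around the receptor; black bars are list medians and dotted lines mark 2-fold. The cytokine-synergy list has medians of 3.98 and 4.55, and the other lists lie between medians of -0.84 and 0.91.

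The receptor's chaperones showed no call. Of 10 kept 0 rose and 0 fell by limma, and 0 were 2-fold apart at both days, with median log2 differences of -0.27 (day 7) and -0.37 (day 10). Hsp90aa1, the inducible HSP90, gave 2130.5 and 4035.6 in treated livers at days 7 and 10, against 5812.7 and 5959.6 in control livers (adjusted p = 0.303). Fkbp4, the co-chaperone that competes with Fkbp5 in the receptor complex, gave 737.5 and 1013.1 against 2070.6 and 1355.0 (adjusted p = 0.283). Both treated arrays lay below both control arrays for these 2 genes, the reverse of Fkbp5, although neither passed. The same held for 5 of the 10 chaperones, and 2 had both treated arrays above, where 24.1% and 20.3% of all genes did so. Dnaja1 and Stip1, further members of the complex, were lower at both days by log2 differences of -0.41 and -0.48, and of -0.37 and -0.38.

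Supply and clearance of the hormone were covered by 3 kept genes, of which 0 passed. Serpina6, the plasma globulin that binds corticosterone, had 1012.0 and 1589.1 in treated livers, against 3901.2 and 4411.4 in control livers, 3.27-fold lower over both days with adjusted p = 0.0641. Cyp3a11, a steroid-oxidizing cytochrome, gave 40733 and 27849 against 53550 and 49777 (adjusted p = 0.419). In both genes both treated arrays lay below both control arrays, as in 24.1% of all genes. The remaining kept gene, Akr1d1, overlapped, with 3737.1 and 1319.2 in treated livers against 1927.2 and 2092.8 in control livers. Of 11 coregulators kept 0 passed, with median log2 differences of 0.18 and 0.17. Med1, a mediator subunit, was higher at both days by log2 differences of 0.56 and 0.66, as were the acetyltransferase Crebbp (1.54 and 0.30) and the deacetylase Hdac2 (0.93 and 0.18). The methyltransferase Carm1 was lower at both (-0.51 and -0.43).

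Relatives of the 7 genes gave no call. Of 16 kept paralogues 0 passed and 0 were 2-fold apart at both days, and their medians were -0.05 and 0.10. Tsc22d1 gave 712.6 and 824.4 in treated livers against 2812.5 and 1536.4 in control livers (adjusted p = 0.158). Sgk2, a liver relative of Sgk1, gave 3183.7 and 3348.4 against 3688.4 and 4643.9 (adjusted p = 0.583). Klf10 was higher at both days, by log2 differences of 0.86 and 0.57.

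The genes with the profile most like each member over the 4 arrays were found by Euclidean distance between mean-centred log2 signals. Nearest to Zbtb16 were Gpx3, a plasma glutathione peroxidase (distance 0.21), and Cebpd (0.28). Nearest to Fkbp5 were Nfkbiz (0.61) and Cfp, the complement factor properdin (0.63). Nfkbiz gave 3381.0 and 1690.9 in treated livers, against 345.2 and 337.5 in control livers. The other members had closer neighbours: Ehmt1 and Arfrp1 for Nr3c1 (0.02 and 0.03), Abtb2 and Rusc1 for Hsd11b1 (0.09 and 0.11), Hexim2 and Coq10a for Tsc22d3 (0.08 and 0.11), Oard1 and Erbin for Sgk1 (0.04 and 0.05), and Nudt4 and Mpzl2 for Klf9 (0.04 and 0.06). Among the members themselves Fkbp5 and Zbtb16 were 0.86 apart, and Fkbp5 and Hsd11b1 farthest, at 3.74.

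Macrophage and some neutrophil markers were higher in the same treated livers, while the T and NK and the B and plasma cell lists were mixed. In such bulk RNA a change in the number of cells of a type and a change in RNA per cell cannot be told apart. All 12 macrophage and Kupffer cell markers were kept and higher at both days, and 3 of them rose by limma (Cd163, C1qc and Vsig4). In 11 of the 12 both treated arrays were above both control arrays, against 20.3% of all genes. The summed signal of the 12 was 48907 and 49701 in treated livers, against 21440 and 12111 in control livers. Cd163 is itself known to be induced by glucocorticoids in macrophages. Of 10 neutrophil markers 7 were kept and 2 rose, S100a8 and S100a9, with sums of 8772 and 9345 against 3312 and 3242, and Camp was under the floor on every array. T and NK cell markers summed to 2979 and 3722 in treated and 3138 and 3169 in control livers, with 0 of 4 kept passing. B and plasma cell markers summed to 12954 and 11147 against 5349 and 3613, and 1 of 6 kept rose (Jchain). Most of that difference was Ighm, at 9577.8 and 7610.5 in treated livers against 2715.6 and 1016.8 in control livers. The control signals of Jchain (106.4 and 150.1) and S100a9 (119.6 and 274.7) averaged under the filter on dim genes (204). Both genes were thus tested only because their treated arrays were high. Cd79b and Ms4a1 were lower at both days, and the list's median log2 difference over both days was -0.08. Of the other kept markers, 9 hepatocyte, 9 sinusoidal endothelial, 7 stellate cell, 2 cholangiocyte and 1 adipocyte, 0 passed, and the adipocyte hormone Adipoq was under the floor on every array. Stellate cell markers summed to 17260 and 17881 in treated livers against 11546 and 12940 in control livers, a difference carried by Dcn (11905 and 10839 against 5197.7 and 5879.2). Of the 7 stellate cell markers, 4 were lower at both days (Col1a2, Col3a1, Des and Acta2), and the median log2 difference of the 7 was -0.20. Endothelial markers summed to 10454 and 15493 against 11436 and 10127. The part of these cells in the signals of Fkbp5, Zbtb16 and Cebpd was not tested.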

How the data were processed

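The deposited values are linear intensity signals, 1 per probe set and array, which the authors made with MAS5 per the submitters' processing notes, version not stated there. Each array's mean after trimming 2% at each end was 500. Of 45037 probe sets that are no array controls, 34945 carry a single gene symbol in the platform annotation. Lower signals were raised to a floor of 64.8, the 25th percentile, before taking log2. Each gene was read from its brightest probe set, and 11993 of 18193 genes passed a filter at the 50th percentile of mean log2 signal (7.67, or 204 in linear units), all 7 members among them. Where both arrays of a group lay under the floor, a fold is a lower bound and the spread within that group is not measured. A gene dim in 1 group can pass the filter through the other group.

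Groups were compared over all kept genes with limma 3.58.1 in R 4.3.3 (trend on intensity, two-sided tests, calls at a Benjamini-Hochberg adjusted p under 0.05). There were 2 arrays a group and 2 residual degrees of freedom, so that p-values measure the spread between arrays, days included. The scripts were tested on simulated data. A single day has 1 array a group and no test; a 2-fold difference was used there. Figures were drawn with matplotlib 3.10.9 in Python 3.11.15.

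The members and all lists were chosen with earlier results of these data known. Named are every member with its probe sets and, from each list, up to 4 genes: those that passed, then those with 1 sign at both days in order of their smaller daily difference. For each member the 2 kept genes with the nearest profile are named, leaving out predicted genes. Per1, the clock genes and Acnat2 were named after their values were seen, as were single cell type markers. Alternatives were quantile normalization, equal medians, other floors, filters and thresholds, the mean of probe sets, each other probe set, no trend, day as a block, and leaving out each array.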

Additional observations from a re-analysis of the deposited data

Results flagged for a closer look

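Tsc22d3 and Sgk1 had daily differences of opposite sign between delta MET + EGFRi and control livers. Tsc22d3 stood at a log2 difference of 1.09 (day 7) and -0.42 (day 10), a change of -1.51 from the earlier to the later day. Sgk1 stood at 0.24 and -0.50, a change of -0.73. With 1 array per group and day the change was not tested, and 42.1% of all 11993 genes had opposite signs at the 2 days.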

How the results depend on the processing

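The number of arrays limits every value. The main setting gave 79 calls by limma. There were 42 calls when probe sets were averaged, 42 without the intensity trend, 47 with day as a block and 162 at an adjusted p under 0.1. These are totals, and how many of the 79 genes were among them is not given. Without a filter on dim genes limma called 0 of 18193, with 1918 at an unadjusted p under 0.05. Leaving out 1 array gave from 24 (without the day 10 control array) to 466 calls (without the day 7 treated array), the lone array of a group being assumed to vary like the other group's. Genes at least 2-fold apart numbered 1171 at day 7 and 1289 at day 10. They were 2337 and 2475 without a filter, 538 and 632 under a filter at percentile 75, 3290 and 3367 at 1.5-fold, and 406 and 443 at 3-fold. Members at least 2-fold apart at both days were 2, and 1 at 3-fold. Leaving out 1 array, the mean log2 difference of Fkbp5 ran from 2.28 to 3.0, of Zbtb16 from 1.6 to 2.08, of Hsd11b1 from -1.62 to -0.47, of Klf9 from 0.16 to 0.75, of Nr3c1 from -0.20 to -0.05, of Tsc22d3 from -0.14 to 0.80 and of Sgk1 from -0.38 to 0.12. With probe sets averaged Fkbp5 was at 1.56, where a probe set under the floor enters, and cholangiocyte markers gave no value, none passing the filter. The median of stellate cell markers was -0.20 and ran from -0.22 to 0.10 on leaving out 1 array, turning without the day 7 treated one; the cause was not tested. No scaling moved the median of all genes by 0.1 or more.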

Other observations

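The full palindrome of the receptor's element lay in promoter windows of only 3 genes among the 32851 windows searched, Sgk1, Acnat2 and Gm35041, the last with no probe set here. Acnat2 belongs to a family of acyl-CoA N-acyltransferases that conjugate fatty acids to amino acids. Its element, AGAACACAATGTTCT, begins 102 bases before the transcript start on chromosome 4 (GRCm38.p6, minus strand). Acnat2 had signals of 1399.1 and 1346.2 in delta MET + EGFRi livers at days 7 and 10, against 33.1 and 39.3 in control livers, where both lie under the floor. It was therefore at least 21.6-fold higher at day 7 and at least 20.8-fold higher at day 10. Its limma adjusted p was 0.00337, but both control values entered the fit as the floor, without any spread. Only its treated arrays carried it past the filter on dim genes, and nothing is read from that p-value. Sgk1 has both half-sites too, around other spacer letters (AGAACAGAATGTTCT) and 189 bases before the start, and its signals overlapped between the groups. Acnat2 was named after its values were seen, and a match of letters shows no binding.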
